A study of Mus musculus with 4 samples.

Results

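The 37 endothelial and angiogenic genes described here were chosen by name from the 39429 probes of an Agilent mouse array, where 44 probes carried their symbols. They comprise 24 genes expressed across the endothelium, 3 genes of the tip cells that lead a growing vessel sprout (Esm1, Apln and Angpt2), and 10 further genes of vessels and their blood-forming relatives. For each gene the brightest probe was used, and 35 genes had a probe above background and were tested. The samples were otocysts, the closed epithelial vesicles that give rise to the inner ear, which were mechanically isolated from NMRI mice at E10.5. Tbx2/3cDKO mutants carried Pax2-cre and were homozygous for the floxed alleles, Tbx2(fl/fl) and Tbx3(fl/fl). Controls were labelled Tbx2(fl/?) and Tbx3(fl/?), with no cre in the genotype and with the second allele of each gene not given. Each of 4 two-colour arrays compared 1 mutant with 1 control RNA of the same sex. Replicates 1 and 2 were female, replicates 3 and 4 were male, and the dyes were swapped within each sex. The labels do not say whether a sample was 1 embryo or a pool, and p-values therefore cover the variation among these samples, which may be technical in part.

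Endothelial cells line the blood vessels. They are joined by VE-cadherin, PECAM-1 and claudin-5 at their contacts, and they receive VEGF and angiopoietin signals through receptor tyrosine kinases of the VEGFR and Tie families. During sprouting, tip cells at the front express Esm1, Apln and Angpt2, while the stalk cells behind them form the tube. Around the otocyst, capillaries run in the mesenchyme that surrounds its epithelium. Pax2-cre is used to recombine floxed alleles in the otic placode and the epithelium derived from it.

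Endothelial genes were higher in Tbx2/3cDKO otocysts with few exceptions. Of the 35 genes tested, 32 rose and 0 fell in the fit across all genes (limma, Benjamini-Hochberg adjusted p under 0.05), against 13.5% of 18419 genes higher and 10.1% lower over the whole array. The median log2 ratio of mutant over control was 0.61 over the members and 0.00 over all genes. Most changes were moderate: the quartiles of the log2 ratio were 0.41 and 0.73, and 30 of the 32 called genes rose less than 2-fold, 13 of them less than 1.5-fold. The other 2 were Esm1 and Vwf. The 3 genes not called were Apln, Angpt2 and Rasip1. In RNA from a dissected tissue, more cells of a type and more RNA per cell cannot be told apart.

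The log2 ratio lay above 0 on all 4 arrays for 33 of the 35 genes, against 21.6% of all genes. It reached 1.5-fold on each array for 13 genes, against 1.96% of all genes. After normalization of the separate channels, all mutant levels lay above all control levels for 30 genes, against 13.1% of all genes. Levels are given below as log2 intensity after that normalization, and they are not comparable between probes of different genes. All 35 probes were well above background in both genotypes on every array.

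**Figure D1:**
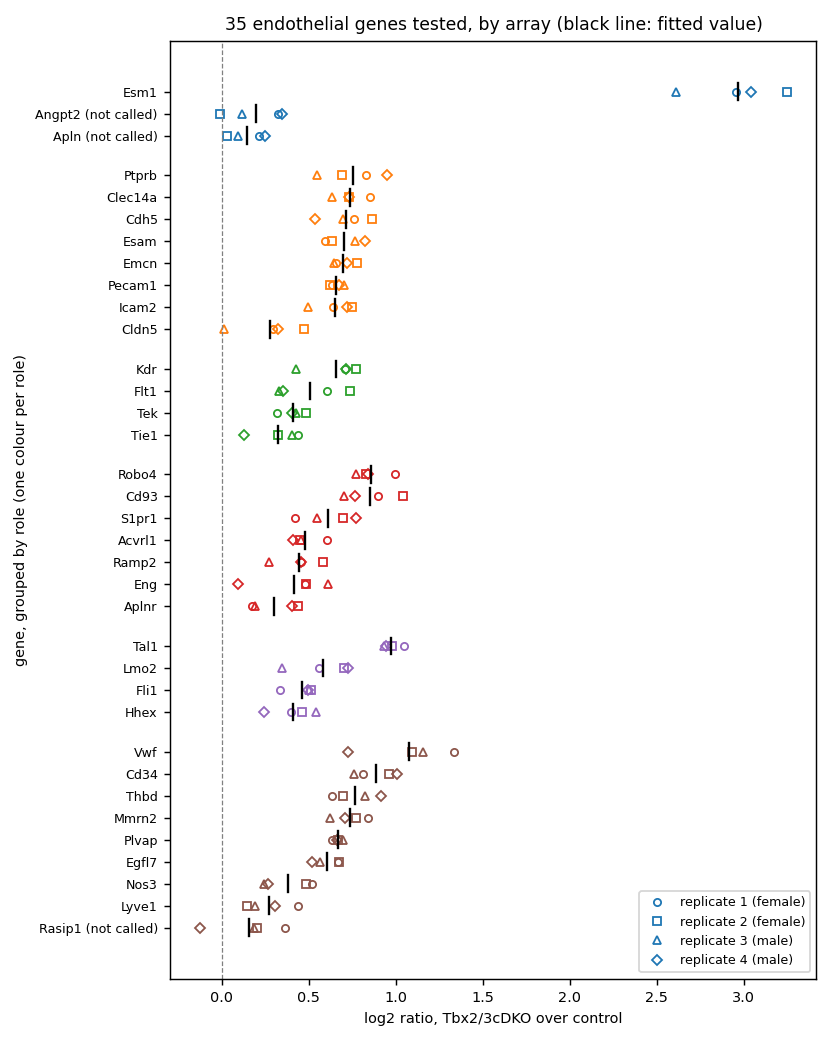
Log2 ratio of Tbx2/3cDKO over control (x axis) for each of the 35 endothelial genes tested (rows, grouped and coloured by role); each symbol is 1 array and the black line is the fitted value. Esm1 stands alone near 3, the other genes lie between 0.15 and 1.08, and the 3 rows named as not called are Apln, Angpt2 and Rasip1.

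Tbx3, a target of the deletion, checks the labels: its log2 ratio was -3.43 ± 0.16 (SD, n = 4 arrays; limma adjusted p = 4.21e-06). The Tbx2 probe, at 0.06 ± 0.23 (adjusted p = 0.650), does not check the deletion, since where it lies relative to the deleted part is not given. Between 57.4% and 62.2% of probes were well above background in a channel, and the arrays' log2 ratios correlated at r = 0.662 to 0.857 across genes, with the lowest value between replicates 1 and 4. Genes are not independent replicates, so those correlations are descriptions.

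The 3 tip-cell genes are read by the probes below, shown because the contrast between them is the main difference within the set. Bases 1 to 30 of each 60-base probe are printed 5′ to 3′. The probes lie at chr13:114008204-114008263 (plus strand) for Esm1, chrX:45378593-45378652 (minus strand) for Apln and chr8:18691458-18691517 (minus strand) for Angpt2, in the coordinates of the array's mm9 annotation. Whether a probe lies in coding sequence or in a UTR was not annotated in the files used here.
Esm1: aatgtactcgtgggaagatccgtgaatgta
Apln: gtcctttggcatctgttcgaatgtcctcat
Angpt2: acctatcttgatggcttagtttttaatggc

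Esm1, which encodes the secreted proteoglycan endocan, had mutant levels of 10.32, 10.29, 10.54 and 10.31 on replicates 1 to 4, against control levels of 7.36, 7.04, 7.93 and 7.26. The lowest mutant level lay well above the highest control level, and the groups did not overlap. The log2 ratio was 2.96 ± 0.27 (SD, n = 4; adjusted p = 5.80e-06), a 7.81-fold rise and the third highest ratio of the 18419 genes tested. The ratio was larger with other processing: 3.43 when normexp was run without an offset, and 3.84 in the scanner software's own ratios, which differ in both background correction and normalization. The rise was called under both.

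Apln encodes apelin, the secreted peptide ligand of the receptor Aplnr. Its mutant levels were 9.23, 9.13, 9.08 and 9.24, against control levels of 9.02, 9.10, 8.99 and 8.998. The groups overlapped, and the log2 ratio was 0.15 ± 0.10 (adjusted p = 0.130). Angpt2 encodes angiopoietin-2, a ligand of the Tek receptor that opposes angiopoietin-1 in many settings. Mutant levels of 8.06, 8.32, 7.97 and 8.004 stood against control levels of 7.73, 8.33, 7.86 and 7.66. Replicate 2 was high in both genotypes and its log2 ratio was -0.01, while the other 3 arrays were above 0. The log2 ratio of Angpt2 was 0.19 ± 0.17 (adjusted p = 0.114); without replicate 2 it was 0.28 and passed the threshold (adjusted p = 0.0208), and without replicate 4 it was 0.10 (adjusted p = 0.366). Apln was at 0.09 without replicate 4 (adjusted p = 0.404).

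Set beside the 23 pan-endothelial genes tested, the tip-cell genes split, with Esm1 above them and the other two low. The mean log2 ratio of the pan-endothelial genes was 0.57 ± 0.06 (SD over 4 arrays), a 1.48-fold difference, and it ran from 0.50 to 0.63 across arrays. The mean of the 3 tip-cell genes exceeded it by 0.53 ± 0.11, but this value rests on Esm1. With the median over genes in place of the mean, the difference was -0.42. Without Esm1, an alternative chosen after seeing the data, it was -0.40.

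Gene by gene, Esm1 exceeded the pan-endothelial mean by 2.40 ± 0.22, and on every array it lay above all 23 pan-endothelial genes. Apln lay below that mean by a log2 difference of -0.42 ± 0.13. On replicates 1 to 4, Apln exceeded 0, 0, 1 and 3 of the 23 genes. Angpt2 differed from the mean by -0.37 ± 0.20 and exceeded 2, 0, 1 and 5 of them. Both genes were below the pan-endothelial mean on each array, and Esm1 was above the top of the range. These differences are descriptions over members and were not tested.

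**Figure D2:**
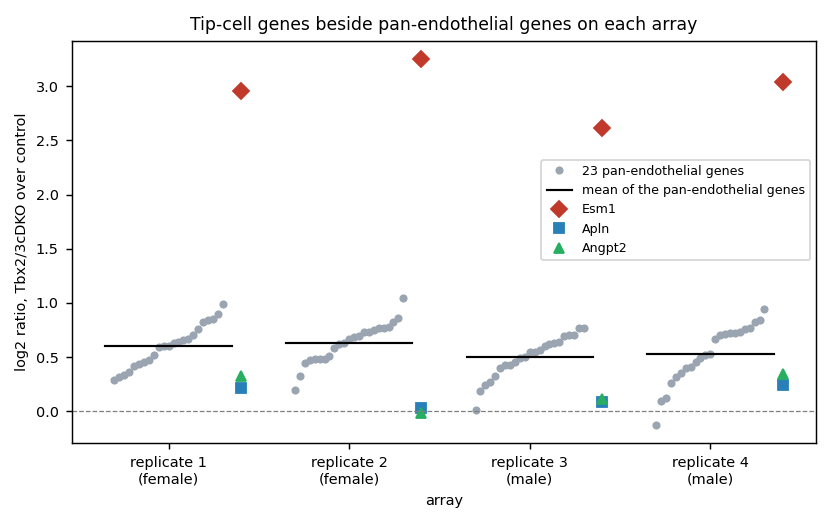
Log2 ratio of Tbx2/3cDKO over control (y axis) on each of the 4 arrays (x axis), for the 23 pan-endothelial genes tested (grey points in rising order; black line, their mean) and the tip-cell genes Esm1, Apln and Angpt2 (coloured symbols). Esm1 lies between 2.61 and 3.25, above every grey point, while Apln and Angpt2 lie between -0.01 and 0.35, below the mean on every array.

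All 8 genes of endothelial junctions and surface contacts rose, with a median log2 ratio of 0.70. Pecam1, the adhesion molecule CD31, had mutant levels of 9.73, 9.90, 9.99 and 9.92, against control levels of 9.09, 9.28, 9.29 and 9.25. The groups did not overlap, and the log2 ratio of 0.66 ± 0.04 (adjusted p = 0.000214) varied little between arrays. Cdh5, which encodes VE-cadherin, had levels of 12.04, 11.99, 11.94 and 11.77 in mutants, against 11.28, 11.13, 11.25 and 11.24 in controls. Its log2 ratio was 0.71 ± 0.14 (adjusted p = 0.000512), again without overlap of the groups.

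Close to these lay Ptprb at 0.75 ± 0.17, the phosphatase VE-PTP that acts on VE-cadherin and Tek, and the lectin-like surface protein Clec14a at 0.74 ± 0.09. The adhesion molecule Esam had a ratio of 0.70 ± 0.11, the sialomucin Emcn 0.70 ± 0.06 and the leukocyte-binding Icam2 0.65 ± 0.11. Within this family Cldn5, the claudin of endothelial tight junctions, changed least. Its mutant levels were 12.18, 12.47, 12.21 and 12.19, against control levels of 11.89, 11.996, 12.19 and 11.87. The control of replicate 3 overlapped the mutants, and the log2 ratio of 0.27 ± 0.19 (adjusted p = 0.0233) lost its call without replicate 1 (0.20, adjusted p = 0.137), without replicate 2 (0.24, adjusted p = 0.0565) and in the scanner software's ratios (0.26, adjusted p = 0.0582).

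The 4 receptor tyrosine kinases tested all rose, with a median of 0.46. Kdr, the main VEGF receptor VEGFR-2, had mutant levels of 12.20, 12.30, 12.14 and 12.19, against control levels of 11.50, 11.53, 11.71 and 11.47. The groups did not overlap, and the log2 ratio was 0.66 ± 0.15 (adjusted p = 0.000533). Flt1, the VEGF receptor VEGFR-1 that can act as a decoy, reached 0.50 ± 0.20 (adjusted p = 0.00491). The angiopoietin receptor Tek was at 0.41 ± 0.07 and its relative Tie1 at 0.32 ± 0.14. Tie1 was weakest on replicate 4, at 0.13, against 0.32 to 0.44 on the other arrays.

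All 7 of the other receptors rose, with a median of 0.48. The highest were Robo4, a roundabout receptor of endothelium, at 0.86 ± 0.09, and Cd93, a C-type lectin domain receptor, at 0.85 ± 0.15. Robo4 had mutant levels of 11.31, 11.30, 11.30 and 11.26, against control levels of 10.32, 10.47, 10.53 and 10.42, with no overlap. S1pr1, the receptor of sphingosine-1-phosphate in vessel maturation, was at 0.61 ± 0.16. Acvrl1 (ALK1) and Eng (endoglin), which form a receptor complex for BMP9 and BMP10, were at 0.48 ± 0.09 and 0.42 ± 0.22. On replicate 4 Eng was at 0.09, and without replicate 3 its log2 ratio of 0.38 missed the threshold (adjusted p = 0.0535). Ramp2, the partner of the adrenomedullin receptor, was at 0.44 ± 0.13.

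Aplnr, the apelin receptor, was called (0.30 ± 0.14, adjusted p = 0.00488), whereas its ligand gene Apln was not. Aplnr mutant levels of 10.65, 10.81, 10.67 and 10.78 all lay above control levels of 10.48, 10.38, 10.48 and 10.37. Whether the ratios of the 2 genes differ was not tested.

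The transcription factors with signal all rose. Tal1, a bHLH factor of blood and endothelial progenitors, had mutant levels of 9.81, 9.57, 9.67 and 9.62, against control levels of 8.76, 8.59, 8.74 and 8.68. Its log2 ratio of 0.97 ± 0.05 (adjusted p = 5.67e-05) was the third highest of the members. Lmo2, the LIM-only partner of Tal1, was at 0.58 ± 0.18, the ETS factor Fli1 at 0.46 ± 0.09 and the homeobox factor Hhex at 0.41 ± 0.13. Tal1 and Lmo2 are also expressed in erythroid cells, whose genes are described below. Erg, another ETS factor of endothelium, had 2 probes that were not well above background in any channel, and it has no call.

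Among the secreted and remaining genes, Vwf, the clotting protein von Willebrand factor, was highest. Its mutant levels were 10.63, 10.45, 10.46 and 10.13, against control levels of 9.29, 9.35, 9.30 and 9.40. The groups did not overlap, and the log2 ratio of 1.08 ± 0.26 (adjusted p = 0.000154) was lowest on replicate 4, at 0.72. Cd34, a sialomucin of endothelium and blood progenitors, had mutant levels of 13.36, 13.40, 13.40 and 13.50, against control levels of 12.55, 12.43, 12.64 and 12.50. Its log2 ratio was 0.88 ± 0.12 (adjusted p = 6.57e-05). Thbd, thrombomodulin, was at 0.77 ± 0.13, and the elastin-microfibril family glycoprotein Mmrn2, a matrix ligand of Cd93 and Clec14a, at 0.73 ± 0.09.

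Plvap, the protein of endothelial diaphragms, showed the least spread of any member. Mutant levels of 11.19, 11.21, 11.39 and 11.41 stood against control levels of 10.55, 10.55, 10.69 and 10.75, and the log2 ratio was 0.66 ± 0.03 (adjusted p = 0.000196). Egfl7, a secreted protein of the vessel matrix, was at 0.60 ± 0.08. Nos3, the endothelial nitric oxide synthase, was at 0.38 ± 0.14 and lost its call without replicate 1 (0.31, adjusted p = 0.0532). Lyve1, a hyaluronan receptor of lymphatic endothelium that macrophages also express, was at 0.27 ± 0.13 (adjusted p = 0.0218). Its groups overlapped, since replicate 2 was high in both genotypes (8.33 in the mutant, 8.19 in the control). Lyve1 lost its call without replicate 1 (0.21, adjusted p = 0.134) and without replicate 4 (0.23, adjusted p = 0.0583), and it was at 0.43 in the scanner software's ratios (adjusted p = 0.0408).

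Rasip1, a Ras-interacting protein needed for the vessel lumen, was not called. Its mutant levels were 10.27, 10.27, 10.26 and 10.03, against control levels of 9.90, 10.07, 10.07 and 10.16. Replicate 4 had a log2 ratio of -0.13 and the other 3 arrays were above 0, which gave 0.16 ± 0.21 (adjusted p = 0.167). Without replicate 4 it was 0.24 and was called (adjusted p = 0.0411), and without replicate 2 it was 0.07 (adjusted p = 0.510).

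**Figure D3:**
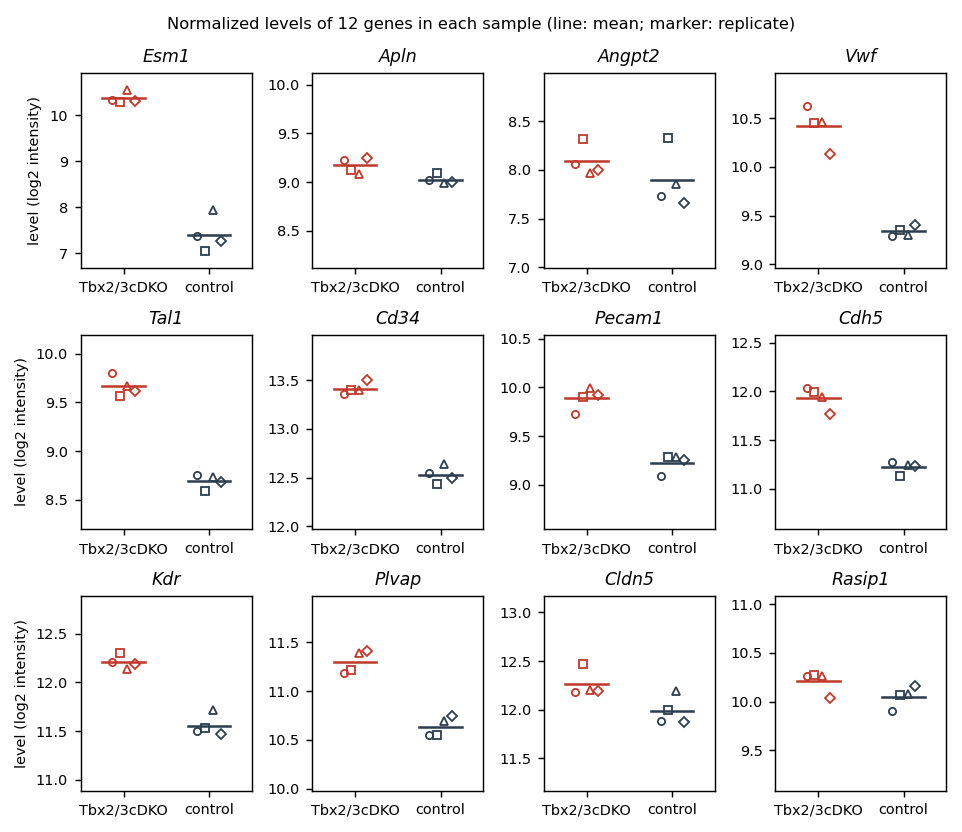
Level in log2 intensity after normalization of the channels (y axis, with a range of its own for each gene that does not begin at 0) of 12 genes in the 4 Tbx2/3cDKO samples (left, red) and the 4 control samples (right, dark); symbols mark replicates and the line is the mean. The groups are separate for Esm1, Vwf, Tal1, Cd34, Pecam1, Cdh5, Kdr and Plvap, and they overlap for Apln, Angpt2, Cldn5 and Rasip1.

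Apart from Esm1, the SD of the log2 ratio over the 34 other members was 0.24. The median SD over arrays of a single member was 0.13. That is a spread of single-array values with the dye effect in it, and so an unlike measure. The ratios of these 34 members ran from 0.15 to 1.08. In that order, all 33 gaps between neighbours were below the larger SD of the pair. Sorting many values over such a range leaves small gaps, so this does not show that these members changed alike. The gap from Esm1 to Vwf, the next member, was 1.89. Ratios showed little relation to brightness over the 35 genes (Spearman's rho = 0.074, a description).

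A pair of members lie close together at 2 places in the genome. The Thbd and Cd93 probes lie at chr2:148230235-148230294 and chr2:148262436-148262495 (mm9), and the genes had ratios of 0.77 and 0.85. The Robo4 and Esam probes lie at chr9:37221547-37221606 and chr9:37345795-37345854, with ratios of 0.86 and 0.70.

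Of the 7 members with more than 1 probe, 4 had a second probe above background, and for 2 of these the ratios of the probes lay far apart. The bases 1 to 30 of those 4 probes are shown because the size of the change in Kdr and Plvap depends on them.
Kdr, brighter probe: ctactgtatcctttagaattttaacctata
Kdr, other probe: tgtttaaatggaagtggtcctgtcccggct
Plvap, brighter probe: tttccagcctccctcttaaaggccactagg
Plvap, other probe: attcaagaaaaggatcctggagtctcagcg

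The Kdr probes lie at chr5:76329309-76329368 and chr5:76330395-76330454 (mm9, minus strand). The brighter read 0.66 and the other 0.16 ± 0.15, which was not called (adjusted p = 0.161 in a fit over all kept probes). The other Kdr probe gave log2 ratios of 0.24, 0.34, 0.08 and -0.01 on replicates 1 to 4, each below that of the brighter probe on the same array. For Plvap, at chr8:74021877-74021936 and chr8:74030739-74030798 (minus strand), the brighter probe read 0.66 and the other 0.17 ± 0.13 (adjusted p = 0.0826), again lower on every array. Whether the probes of a gene read the same transcripts was not annotated in the files used here.

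The second probe of Cd34 was called too, at 0.65 ± 0.20 (adjusted p = 0.00149), while that of Nos3 read 0.31 ± 0.25 and was not called (adjusted p = 0.0552). Cd34 was thus the only gene called by both of its probes. The second probes of Clec14a and Ptprb were not well above background in any channel. With the mean over all kept probes of a gene in place of the brightest, 32 members were again higher, with Kdr at 0.41 and Plvap at 0.42.

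**Figure D4:**
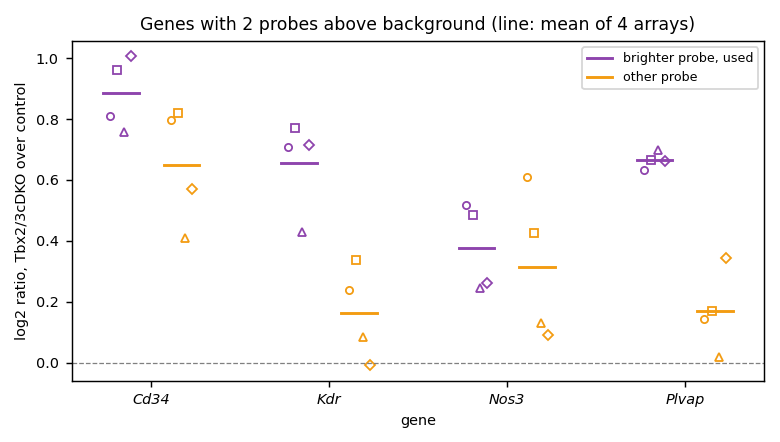
Log2 ratio of Tbx2/3cDKO over control (y axis) for the 4 genes with 2 probes above background (x axis); symbols are the 4 arrays, lines their mean, purple the brighter probe that was used and orange the other. The probes of Kdr (0.66 and 0.16) and Plvap (0.66 and 0.17) are far apart, while those of Cd34 and Nos3 overlap.

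For 2 members no test was made. Flt4, the VEGF-C receptor VEGFR-3, was well above background in 1 of 4 mutant channels and in 0 of 4 control channels. Its levels were 6.92, 6.97, 7.07 and 7.08 in mutants and 6.93, 6.92, 6.86 and 6.96 in controls. Those groups overlapped, and without the filter the log2 ratio was 0.09 (adjusted p = 0.410). Erg was dim in both genotypes, with an unfiltered ratio of -0.02 (adjusted p = 0.871), so a defining factor of the endothelium gave no signal from which its level could be read.

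Promoter sequences in RefSeq's GRCm38.p6 table matched 18 of the 37 genes, with 23 promoters. The 250 bases before the start were searched on both strands for 5 motifs. For ETS factors such as Fli1 these were CAGGAA and, as a second form with the same core, CCGGAA. For GATA factors the motif was AGATAA. For T-box factors it was AGGTGTGA, and for the hypoxia response it was the core ACGTG. Promoters of Esm1 and Apln are shown because these tip-cell genes differed in response. That of Kdr is shown because it alone among the 18 genes searched held the second ETS form. Matches to any of the motifs are in capitals.
Esm1, chr13:113209409-113209658, plus strand: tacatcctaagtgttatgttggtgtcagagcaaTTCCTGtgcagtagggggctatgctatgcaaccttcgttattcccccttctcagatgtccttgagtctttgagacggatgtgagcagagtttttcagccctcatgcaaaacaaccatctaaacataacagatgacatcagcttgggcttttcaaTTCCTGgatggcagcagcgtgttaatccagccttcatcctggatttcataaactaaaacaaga
Apln, chrX:48034854-48035103, minus strand: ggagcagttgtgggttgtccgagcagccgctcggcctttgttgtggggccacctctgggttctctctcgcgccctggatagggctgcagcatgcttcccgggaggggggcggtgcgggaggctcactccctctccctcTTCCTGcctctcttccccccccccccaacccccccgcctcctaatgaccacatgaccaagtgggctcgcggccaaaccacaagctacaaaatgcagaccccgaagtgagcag
Kdr, chr5:75978456-75978705, minus strand: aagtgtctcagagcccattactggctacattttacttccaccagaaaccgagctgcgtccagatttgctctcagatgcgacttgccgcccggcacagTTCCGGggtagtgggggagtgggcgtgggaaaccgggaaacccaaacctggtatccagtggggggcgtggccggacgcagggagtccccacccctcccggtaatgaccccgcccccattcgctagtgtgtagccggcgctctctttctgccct

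CAGGAA occurred in 13 of the 23 members' promoters (56.5%), against 25.7% of the 32851 promoters in the table. Esm1 held it at 217 and 63 bases before the start and Apln at 112 bases, all on the reverse strand. The other ETS form, CCGGAA, occurred in 1 member promoter (4.35%), against 12.03% of all. AGATAA was found in 2 (8.70%, against 9.99%), AGGTGTGA in 1 (4.35%, against 1.12%), and ACGTG in 1 (4.35%, against 16.6%). The promoter with AGGTGTGA was one of Erg. These matches are descriptions of letters in a window, and several promoters belong to the same gene.

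The mutant effect was also compared between the sexes, with 2 arrays each. In a genotype by sex term, 0 members passed the adjusted threshold (limma), against 2 of all 18419 genes, so the lack of a call says little about the members. An unadjusted p under 0.05 was found for 6 members. The share over all genes is not given here, so that count cannot be read as a sex difference in the members. The smallest adjusted p was 0.180, for Flt1, whose log2 ratios were 0.60 and 0.74 on the female arrays and 0.33 and 0.35 on the male arrays. The median over the members was 0.63 within the female arrays and 0.57 within the male arrays.

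Endothelial genes outside the set mostly moved the same way. This list and those below were chosen with earlier results of these data known, so they are not independent support. Their counts stand against 13.5% of all genes higher and 10.1% lower. Of 30 further endothelial genes, 27 were tested, of which 22 rose and 0 fell, with a median of 0.43. The highest were the protease inhibitor gene Ctla2a (0.99 ± 0.13), the SoxF factors Sox7 (0.86 ± 0.17) and Sox17 (0.79 ± 0.07), and the Cdc42 exchange factor Fgd5 (0.70 ± 0.06). Their summed intensity ran from 50433 to 54242 in mutants, against 39726 to 43215 in controls.

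Other genes used to mark tip cells were mixed. Of 12 tested, 6 rose and 1 fell, with a median of 0.27. The chemokine receptor Cxcr4 (0.74 ± 0.28), the basement membrane protein Nid2 (0.73 ± 0.17), the mural cell attractant Pdgfb (0.62 ± 0.15) and the urokinase receptor Plaur (0.56 ± 0.14) were highest. The gene that fell was the netrin receptor Unc5b (-0.36 ± 0.25, adjusted p = 0.0201), named after its value was seen. The highest ratio of the 12 was thus 0.74, against 2.96 for Esm1.

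Of 9 ligand genes tested, 6 rose and 1 fell. Vegfd (0.90 ± 0.09) and Vegfc (0.75 ± 0.12), ligands of Flt4, were the highest, followed by Vegfa (0.55 ± 0.21), the main ligand of Kdr, and Angptl4 (0.52 ± 0.13). Vegfa was positive on all arrays, at 0.67, 0.49, 0.74 and 0.28. Angpt1, the activating ligand of Tek, was the gene that fell (-0.28 ± 0.22, adjusted p = 0.0479), with 0.05 on replicate 4 and values below 0 on the others. It was named after its value was seen.

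Of 10 arterial genes, 6 rose and 0 fell. The connexins Gja5 (2.08 ± 0.18, adjusted p = 1.62e-05) and Gja4 (1.24 ± 0.15) and the semaphorin Sema3g (1.08 ± 0.12) had log2 ratios in the range of Vwf or above it, while Notch4 (0.26 ± 0.16) was lower than most pan-endothelial genes. Of 4 venous and lymphatic genes tested, Nr2f2 (1.14 ± 0.16), a venous factor that mesenchyme also expresses, and Ephb4 (0.50 ± 0.13) rose. Prox1 and Reln did not pass the filter on dim probes.

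Mural cells, the pericytes and smooth muscle that coat vessels, were less uniform. Of 9 genes tested, 4 rose and 1 fell. The smooth muscle actin gene Acta2 (1.25 ± 0.20), Pdgfrb (0.62 ± 0.06) and Tagln (0.62 ± 0.12) rose. Rgs5, which marks pericytes, was well above background in 0 of 4 mutant channels and 4 of 4 control channels. It fell at least 1.56-fold in mutants (adjusted p = 0.000403). That bound sets its mean control level against the lowest signal well above background on each array. Of 11 hypoxia response genes, 2 rose and 4 fell, with a median of -0.10. Ndrg1 (0.58 ± 0.14) rose, while Ldha (-0.55 ± 0.14), Bnip3 (-0.39 ± 0.17) and Higd1a (-0.34 ± 0.11) fell.

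Markers of other cells in and around the otocyst moved at the same time. All 13 erythroid genes rose, with a median of 1.11, and their summed intensity ran from 1071959 to 1164087 in mutants, against 360413 to 565223 in controls. Of 8 megakaryocyte and platelet genes 7 rose, with a median of 0.40, and their sum was 9987 to 12306 in mutants, against 4347 to 4489 in controls. The platelet chemokine Pf4 (1.44 ± 0.16) led that list and makes up most of that sum. Its mean level was 13.24 in mutants and 11.80 in controls, and the other genes of the list lay at 8.09 or below. Platelets also hold Vwf and Pecam1. Of 11 macrophage genes tested 7 rose (median 0.37; sum 5847 to 8090 in mutants, against 4903 to 5466 in controls), and Fcgr1 and Spi1 did not pass the filter on dim probes.

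Of 16 genes of the periotic mesenchyme, the tissue through which the capillaries run, 12 rose. Their median was 0.35 and their sum 158535 to 167185 in mutants, against 116039 to 131186 in controls. Of 14 otic epithelium genes 10 fell and 1 rose, with a median of -0.42 and a sum of 124649 to 142132 in mutants, against 228829 to 251720 in controls. Oc90 (-1.83 ± 0.24), the brightest of that list, weighs most in the sum, with mean levels of 14.99 in mutants and 16.82 in controls. Of 9 neuronal genes tested 7 rose, with a median of 1.05 and a sum of 21302 to 26422 in mutants, against 14148 to 15541 in controls. The mesenchyme and neuronal lists moved in the direction of the endothelial genes, and the otic epithelium list moved the other way. The part of these lists in the result was not tested.

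**Figure D5:**
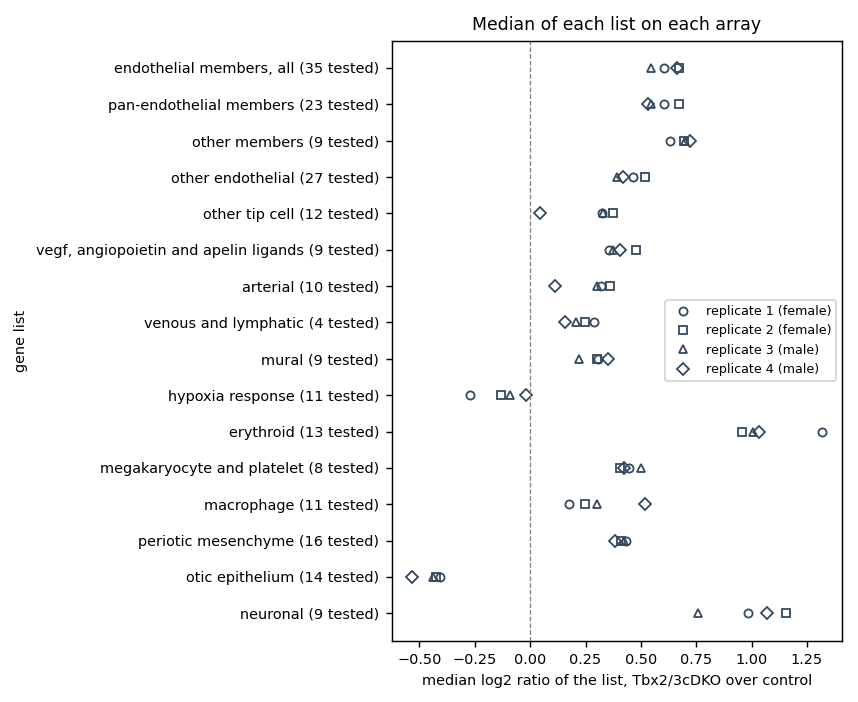
Median log2 ratio of Tbx2/3cDKO over control (x axis) of each gene list (rows, with the number of genes tested) on each array (symbols). Lists of endothelial, blood, mesenchymal and neuronal cells lie above 0 on all 4 arrays, and the hypoxia and otic epithelium lists lie below it.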

How the data were processed

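RNA of 4 mutant and 4 control otocyst samples was amplified, labelled with a red dye (AlexaFluor647) or a green dye (AlexaFluor555) and hybridised in mutant and control pairs to 4 arrays, per the labels' protocols. The red channel held the mutant on replicates 1 and 3, and the green channel held it on replicates 2 and 4. Per the file headers there was 1 slide and 1 scan session, which leaves no batch to test. The number of arrays limits the precision.

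Per the file headers, each spot's intensity and local background intensity came from Agilent Feature Extraction (version 10.7.3.1, also in the submitters' processing notes). That software also wrote log10 ratios of red to green and flag scores that mark saturated spots, uneven spots and spots well above background, per the file headers. The series table that the authors deposited gives the mutant over control ratio as a signed fold. For 90.9% to 93.3% of probes it matched the scanner ratio to within 0.001 log2, which is how its scale and direction were found; no source used here says how the rest were made.

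Background was corrected with normexp (offset 50), and each array was normalized by loess with zero weight on control spots (limma 3.58.1, R 4.3.3). From 21 to 32 non-uniform spots per array were dropped, 0 were saturated, and replicate spots were averaged. A probe needed signal well above background in one genotype's channel on 3 or more arrays, which 23202 of 39429 did, and each gene was read by its brightest such probe. Symbols were updated through a RefSeq table (GRCm38.p6). The model, fitted with lmFit and eBayes (2 residual and 4.60 prior degrees of freedom), had a genotype effect signed by dye and a dye effect. Benjamini-Hochberg adjustment ran over all 18419 genes or unnamed targets. Each SD is over the 4 log2 ratios turned to mutant over control, with the dye effect still in it. Channel levels followed Aquantile normalization, and a list's summed level adds the linear intensities of its tested genes, so its brightest genes weigh most.

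All 37 genes were named, and of each further list the counts and up to 4 genes with the largest absolute log2 ratio past the threshold. The members and lists were chosen with earlier results of these data known. Alternatives changed the background correction, normalization, source of the ratios, filters, design terms, weights, moderation and probe rule, or left out a replicate. Figures were drawn with matplotlib 3.10.9.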

Additional observations from a re-analysis of the deposited data

Results flagged for a closer look

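Values that stood apart from the other 3 of their kind by Dixon's test at the 95% level are given here, for 107 sets of 4 values (mutant levels, control levels and log2 ratios of the 35 members tested, their median and the tip-cell difference); chance flags about 1 in 20. Of the 10, 5 are mutant levels in log2 intensity. Esm1 was high on replicate 3 (10.54, against 10.29 to 10.32), Cldn5 on replicate 2 (12.47, against 12.18 to 12.21), Hhex on replicate 3 (9.33, against 9.12 to 9.15) and Lyve1 on replicate 2 (8.33, against 7.74 to 7.79). Rasip1 was low on replicate 4 (10.03, against 10.26 to 10.27). Among control levels, Esam was low on replicate 1 (10.04, against 10.13 to 10.15). On replicate 3 the controls were high for Emcn (11.10, against 10.96 to 10.98), Lmo2 (10.35, against 10.12 to 10.14) and Egfl7 (12.29, against 12.004 to 12.03). The log2 ratio of Fli1 was low on replicate 1 (0.33, against 0.50 to 0.51).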

How the results depend on the processing

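Under every alternative run that gives a call, the count of members higher was 29 to 33 and the count lower was 0. Over all genes in those runs, 8.02% to 18.6% were higher and 5.58% to 14.4% lower. The count of 33 came with the genotype by sex term, where the share of all genes higher was also largest, at 18.6%. The members' median log2 ratio was between 0.57, within the male arrays, and 0.66. Leaving out each replicate gave counts of 29 to 32 higher, against 8.48% to 13.5% of all genes. Of 595 log2 ratios of members under alternatives with a test, 584 kept their direction and their side of the threshold, 8 lost a call, 3 gained one and 0 reversed. The 70 values within the arrays of 1 sex had no test and kept their direction. The mean of the tip-cell genes minus that of the pan-endothelial genes was less stable. It was 0.83 in the scanner software's log ratios and 0.83 in the series value table, 0.69 with normexp without an offset, -0.42 with the median over genes and -0.40 without Esm1; leaving out replicates gave 0.48 to 0.59. Rasip1 was also called with a genotype by sex term (adjusted p = 0.0381), and Cldn5 missed the threshold in the series value table (adjusted p = 0.0575). Each array holds 1 mutant and 1 control of the same sex and the fit uses the ratios within arrays, so the main analysis is already paired and no further block was run. Dim signal limits Flt4 and Erg, for which no level could be read.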
